A study of Mus musculus with 28 samples.

Results

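Dasatinib with quercetin (labelled DQ) was compared with vehicle (labelled Veh) in the hippocampus of female wild-type mice, whose genotype the labels give as BL6/129 (here WT). The comparison took in the 4 WT DQ libraries and the 4 WT Veh libraries, 8 of the 28 bulk RNA-seq libraries of the series, and all 16369 of the 24062 counted genes that passed a filter on low counts. Other groups are used only to place these values: WT mice given navitoclax (ABT263, labelled NAVI), and mice of the 3xTg-AD line, a transgenic model of Alzheimer's disease, given DQ or the vehicle labelled VehD. In all 7 groups there were 4 libraries of female hippocampus. The WT animals carry none of the transgenes, so DQ was given here to mice without the disease model. The labels give no age, dose, schedule or batch. Nothing in them ties a library to an animal of its own, so the spread between replicates may be in part technical. The 8 libraries held 33947830 to 46338962 counts, within the range of the series, 32080861 to 54019519.

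Dasatinib is an inhibitor of tyrosine kinases, among them the SRC family, ABL, KIT, the PDGF receptors and several ephrin receptors. Quercetin is a plant flavonoid that acts on several kinases and on oxidative stress. The pair is used as a senolytic, a treatment meant to kill senescent cells, which have left the cell cycle for good, express the cell cycle inhibitors encoded by Cdkn1a (p21) and Cdkn2a (p16) and secrete inflammatory and matrix-remodelling factors. In the brain, senescence markers have been described in glia and in neurons with tau pathology. The question of this comparison is what the drug pair does to hippocampal RNA where that pathology is absent.

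Few genes differed measurably between the WT DQ and WT Veh hippocampus, and what underlies a difference between the groups was not tested. Of 16369 genes tested with edgeR's quasi-likelihood test, 1 passed an adjusted p of 0.05 (0.00611% of genes tested), the secreted matrix protein gene Cthrc1, which was lower with DQ. None passed in the other direction with edgeR, and DESeq2 called 1 rise, Sspo, described below. At an unadjusted p under 0.05 there were 554 genes (3.38%), 220 higher (1.34%) and 334 lower (2.04%) with DQ. The log2 fold changes, given throughout as WT DQ minus WT Veh, had a median of -0.0028 over all genes, and 48.6% were above 0. The standard error (SE) of a gene's log2 fold change had a median of 0.119. In 91 genes (0.556%) all 4 DQ libraries were above all 4 Veh libraries, and in 152 genes (0.929%) they were below them. The number of genes past the threshold was 5 without WT DQ replicate 1, 2 without WT Veh replicate 1 and 2 without WT Veh replicate 3; Cthrc1 was among them each time.

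Cthrc1, collagen triple helix repeat containing 1, encodes a glycoprotein secreted into remodelling matrix that also takes part in noncanonical WNT signalling. It lies at chr15:39076932-39087121 on the mm10 build. Its level in CPM (counts scaled to library size, with TMM factors) was 0.831, 0.777, 0.673 and 0.819 in the 4 WT DQ libraries and 2.95, 3.78, 2.23 and 2.72 in the 4 WT Veh libraries. Every DQ library was below every Veh library, and the DQ values lay close together. These levels rest on 26 to 38 counts per DQ library and 94 to 163 per Veh library, so the gene was measurable in all 8, at a low level. The means were 0.775 ± 0.0717 CPM (SD, n = 4) with DQ and 2.92 ± 0.648 CPM (SD, n = 4) with Veh. Cthrc1 was lower with DQ by 1.91 on the log2 scale (SE 0.238, 95% confidence interval -2.40 to -1.42, edgeR adjusted p = 0.000376). This difference puts the Veh level of Cthrc1 3.75-fold above the DQ level. It passed the threshold in 16 of 18 alternative analyses, with log2 fold changes from -2.08 to -1.75. The call was lost when only the 8 libraries were fitted (adjusted p = 0.0503) and with limma-voom (adjusted p = 0.166); over the 18 the adjusted p ran from 8.26e-10 to 0.166.

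**Figure D1:**
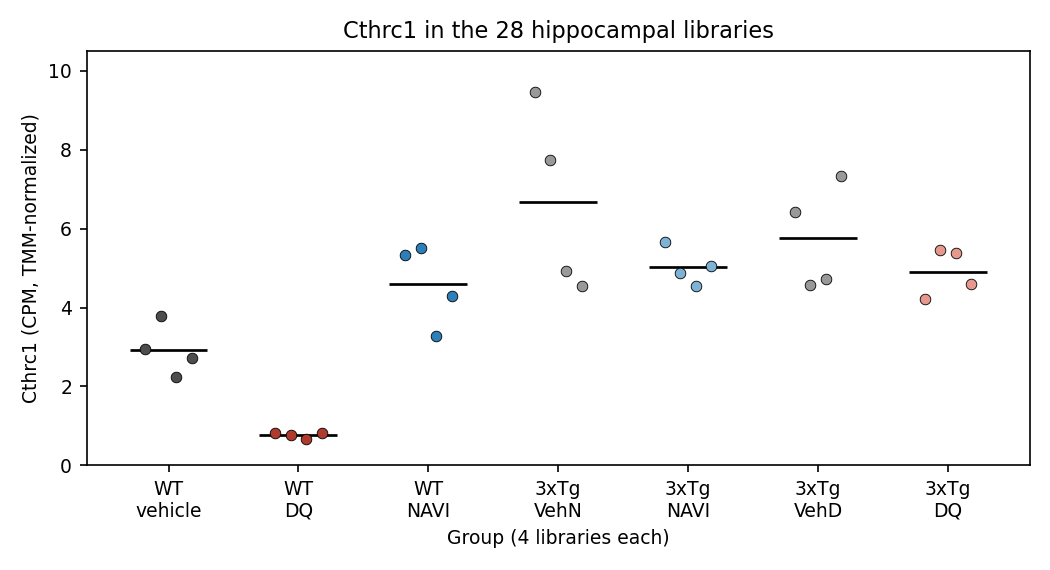
Cthrc1 in CPM (vertical axis, from 0) in each of the 28 libraries by group (horizontal axis); points are libraries and lines are means of 4. The 4 WT DQ libraries, from 0.673 to 0.831 CPM, are the only ones of the 28 below 2.23 CPM.

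Outside the comparison, the level of Cthrc1 was 5.32, 5.52, 3.28 and 4.28 CPM in the WT NAVI libraries, 6.42, 4.58, 4.73 and 7.35 in 3xTg VehD and 4.21, 5.45, 5.38 and 4.61 in 3xTg DQ. The plot of Cthrc1 by group shows that the WT DQ libraries were the lowest of the series, and that the 3xTg libraries with the same drug pair lay in the range of the other 3xTg libraries.  The summed level of 14 tested meningeal fibroblast markers was 377 to 748 CPM with DQ and 371 to 686 CPM with Veh. All 14 had a log2 fold change above 0, with a median of 0.54, and their part in the Cthrc1 values was not tested.

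No other fall passed the threshold, and the 4 next smallest p-values among genes lower with DQ are given as values. Polr2k, which encodes a small subunit shared by the nuclear RNA polymerases, had 10.1, 9.18, 7.79 and 6.97 CPM with DQ and 12.997, 12.3, 11.6 and 11.8 CPM with Veh. The groups did not overlap, and the log2 fold change was -0.52 (SE 0.103, edgeR adjusted p = 0.290). It passed with DESeq2 (adjusted p = 0.00824), after removal of a GC trend (0.0399) and without WT DQ replicate 1 (0.0269). Mtmr12, a catalytically inactive member of the myotubularin family of lipid phosphatases, had 52.2, 58.1, 50.0 and 50.2 CPM with DQ against 60.5, 67.6, 67.9 and 62.5 CPM with Veh. Again every DQ library was the lower, with a log2 fold change of -0.30 (SE 0.0610, edgeR adjusted p = 0.297; DESeq2 adjusted p = 0.0146). Pkdrej, a polycystin family gene known from sperm, had 1.03, 1.12, 1.66 and 1.24 CPM with DQ and 2.16, 1.65, 2.40 and 2.55 CPM with Veh, a log2 fold change of -0.79 (SE 0.178, edgeR adjusted p = 0.605). All 3 genes lie on chromosome 15, as Cthrc1 does.

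The remaining one, Cd79b, encodes a chain of the B cell receptor and rested on 1 library. It stood at 8.59 CPM in WT Veh replicate 1 and between 0.232 and 0.262 CPM in the other 3 Veh libraries, with 0.175, 0.288, 0.104 and 0.0264 CPM in the DQ libraries. Its log2 fold change was -3.97 (edgeR adjusted p = 0.605) and -0.75 without that library. The partner chain Cd79a had 5.98 CPM in the same library and 0.109 to 0.255 CPM in the other 3. Lymphocyte markers summed over the list came to 1.62 to 30.5 CPM in the Veh libraries and 0.98 to 1.38 CPM in the DQ libraries, and 5 of 14 passed the filter. The T cell genes did not share a direction. Cd4, also made by other cells, had 0.284, 0.230, 0.285 and 0.211 CPM with DQ and 0.568, 0.649, 1.27 and 1.51 CPM with Veh (log2 fold change -1.95, SE 0.806). Cd8a rested on 11, 6, 3 and 5 counts with DQ and 2, 2, 1 and 1 counts with Veh (2.05, SE 0.762). In both genes the groups did not overlap.

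The 5 smallest p-values among genes higher with DQ also missed the threshold with edgeR. Sspo encodes SCO-spondin, a large glycoprotein secreted by the subcommissural organ at the roof of the third ventricle. Its level was 1.31, 1.90, 3.21 and 24.3 CPM with DQ and 1.16, 1.16, 1.005 and 1.71 CPM with Veh, so that replicate 4 stood far above the rest. The log2 fold change was 2.61 (edgeR adjusted p = 0.605, DESeq2 adjusted p = 0.0146), and 0.77 without that replicate. In the same library Tac2, a neuropeptide gene of the habenula, had 22.7 CPM against 2.59 to 3.68 in the other 3 DQ libraries, and Zic4 had 14.1 CPM against 3.52 to 4.38. Cyp2a5, a cytochrome P450 with close copies in its gene cluster, had 0.853, 1.61, 2.75 and 2.69 CPM with DQ and 0.432, 0.232, 0.153 and 0.521 CPM with Veh. Every DQ library was the higher, with a log2 fold change of 2.57 (SE 0.717, edgeR adjusted p = 0.9997). Olfml2a, an extracellular olfactomedin-like protein, had 1.88, 1.35, 4.51 and 3.67 CPM with DQ and 1.41, 1.53, 0.590 and 0.666 CPM with Veh, so the groups overlapped. The predicted gene Gm20125 rested on 7 to 12 counts per DQ library and 2 to 4 per Veh library. For 3632451O06Rik, an uncharacterized gene, the log2 fold change was 0.34 (SE 0.0912, edgeR adjusted p = 0.9997), and it passed without WT DQ replicate 1 (adjusted p = 0.0269).

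Genes of chromosome 15 were frequent among the small p-values, a pattern seen after the values were known and described without a test. On chromosome 15, 47 of 633 tested genes had an unadjusted p under 0.05 (7.42%), 19 of them higher and 28 lower with DQ, against 3.38% of all genes and 1.90% to 4.73% on any other chromosome. Of the 69 genes with an unadjusted p under 0.005, 12 were on chromosome 15, out of its 633 tested genes. The next highest number was 10, on chromosome 2, which had 1294 tested genes. The 12 were Mtmr12, Polr2k, Baalc, Cthrc1, Nudcd1, Ly6d, Rpl3, Pkdrej, Rabl2, Slc38a2, Tmem106c and Olfr287, and they lay between positions 12204970 and 98221056 of the chromosome. Over the alternative analyses the count on chromosome 15 ran from 31, with only the 8 libraries fitted, to 81, after removal of a GC trend. What underlies this pattern was not tested.

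**Figure D2:**
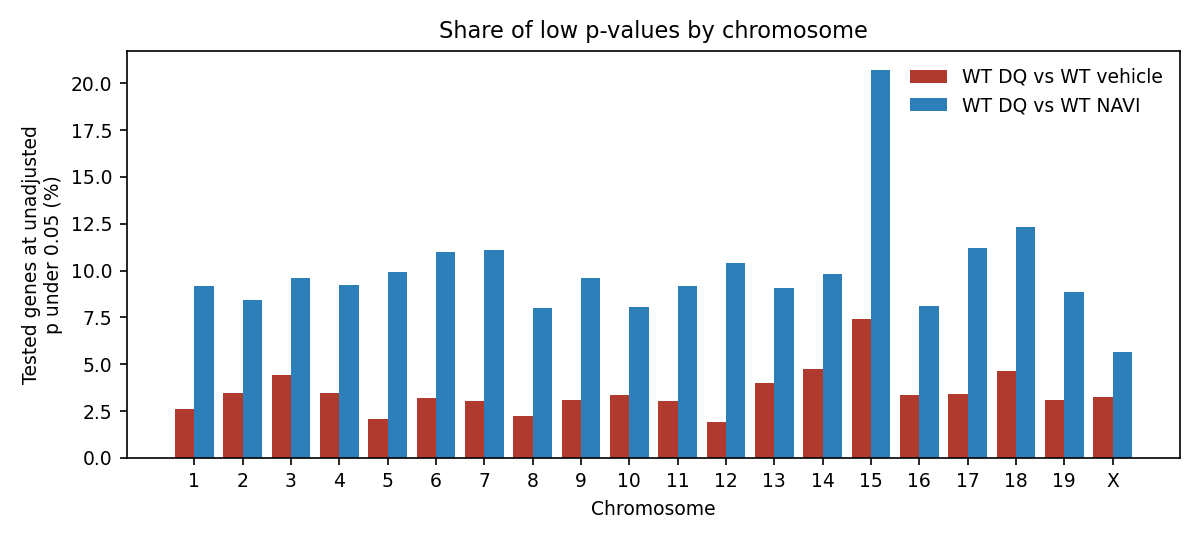
Share of tested genes at an unadjusted p under 0.05 (vertical axis, percent, from 0) by chromosome (horizontal axis) for WT DQ against WT Veh (red) and against WT NAVI (blue). Chromosome 15 has the tallest bar in both, 7.42% and 20.7%, with 1.90% to 4.73% and 5.64% to 12.3% on the other chromosomes.

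Apart from Cthrc1, the more abundant of these genes differed by small amounts. Rpl3, a protein of the large ribosomal subunit with processed copies elsewhere in the genome, had 323, 365, 374 and 356 CPM with DQ and 383, 392, 445 and 446 CPM with Veh. The groups did not overlap, at a log2 fold change of -0.23 (SE 0.0544, edgeR adjusted p = 0.605). Baalc, a membrane-associated protein of neural and early blood cells, had 187, 209, 196 and 172 CPM with DQ and 221, 216, 235 and 212 CPM with Veh. It too did not overlap, and its log2 fold change was -0.21 (SE 0.0650). Slc38a2, a transporter of neutral amino acids, differed the other way, with 160, 177, 201 and 185 CPM with DQ and 148, 136, 145 and 137 CPM with Veh (log2 fold change 0.35, SE 0.104, edgeR adjusted p = 0.9997), again without overlap. Olfr287, an olfactory receptor gene, was uneven within DQ, at 0.416, 2.33, 2.20 and 0.343 CPM against 3.00, 4.13, 4.30 and 4.29 CPM with Veh. Baalc begins at position 38933909, Fzd6 at 39006149 and Cthrc1 at 39076932. Fzd6, a WNT receptor of the planar cell polarity branch, had 5.84, 4.14, 4.74 and 6.63 CPM with DQ and 8.63, 6.73, 6.49 and 7.96 CPM with Veh (log2 fold change -0.48, SE 0.194, edgeR adjusted p = 0.9997), and its groups overlapped slightly.

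A direct test against the other drug in WT called 11 genes with edgeR (0.0672% of genes tested), and all 11 were on chromosome 15. Lower with DQ than with NAVI were 7 (0.0428%): Cthrc1, Mtmr12, Polr2k, Rpl3, Pkdrej, Baalc and Nudcd1. The log2 fold change against NAVI was -2.56 for Cthrc1 (SE 0.237, edgeR adjusted p = 1.03e-06), -0.51 for Mtmr12 (adjusted p = 9.84e-05) and -0.67 for Polr2k (adjusted p = 0.00355). Higher with DQ were 4 (0.0244%): Erich5, the DNA-binding protein gene Jrk, the NF-kappaB scaffold gene Card10 and Poldip3, which takes part in mRNA export. At an unadjusted p under 0.05 were 131 of the 633 chromosome 15 genes (20.7%) against 9.84% of all genes. The count of 11 was 5 without WT DQ replicate 1, 5 without WT NAVI replicate 2, 7 without WT DQ replicate 3, 7 without WT DQ replicate 4 and 20 without WT DQ replicate 2. It was 38 with DESeq2, 39 with limma-voom and 1 with only these libraries fitted, and 21 of the 38 and 21 of the 39 were on chromosome 15.

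In every gene called against NAVI, Erich5 and Jrk among them, the DQ and NAVI log2 fold changes against Veh had opposite signs. WT Veh thus lay between the 2 drug groups, which choosing genes by the difference between those groups favours. Erich5 had 8.93, 11.2, 9.22 and 8.90 CPM with DQ, 5.75, 6.77, 6.31 and 5.99 CPM with Veh and 2.25 to 5.91 CPM with NAVI. Against Veh its log2 fold change was 0.62 (SE 0.214, edgeR adjusted p = 0.9997) and against NAVI 1.53 (SE 0.220, edgeR adjusted p = 0.00149). Jrk had 16.5, 15.6, 15.05 and 16.1 CPM with DQ, 14.8, 14.2, 11.7 and 12.2 CPM with Veh and 10.4 to 11.4 CPM with NAVI. In both genes the DQ libraries were the highest of the WT groups, as the plots of chromosome 15 genes by group show. The DQ and NAVI effects against Veh share their control libraries, so the 2 are only set side by side: Mtmr12 had -0.30 with DQ and 0.21 with NAVI, Polr2k -0.52 and 0.15, Cthrc1 -1.91 and 0.66 (log2 fold changes). On chromosome 15, 10.7% of genes had an unadjusted p under 0.05 for NAVI against Veh, within the 5.13% to 11.5% of the other chromosomes (all genes, 7.74%).

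**Figure D3:**
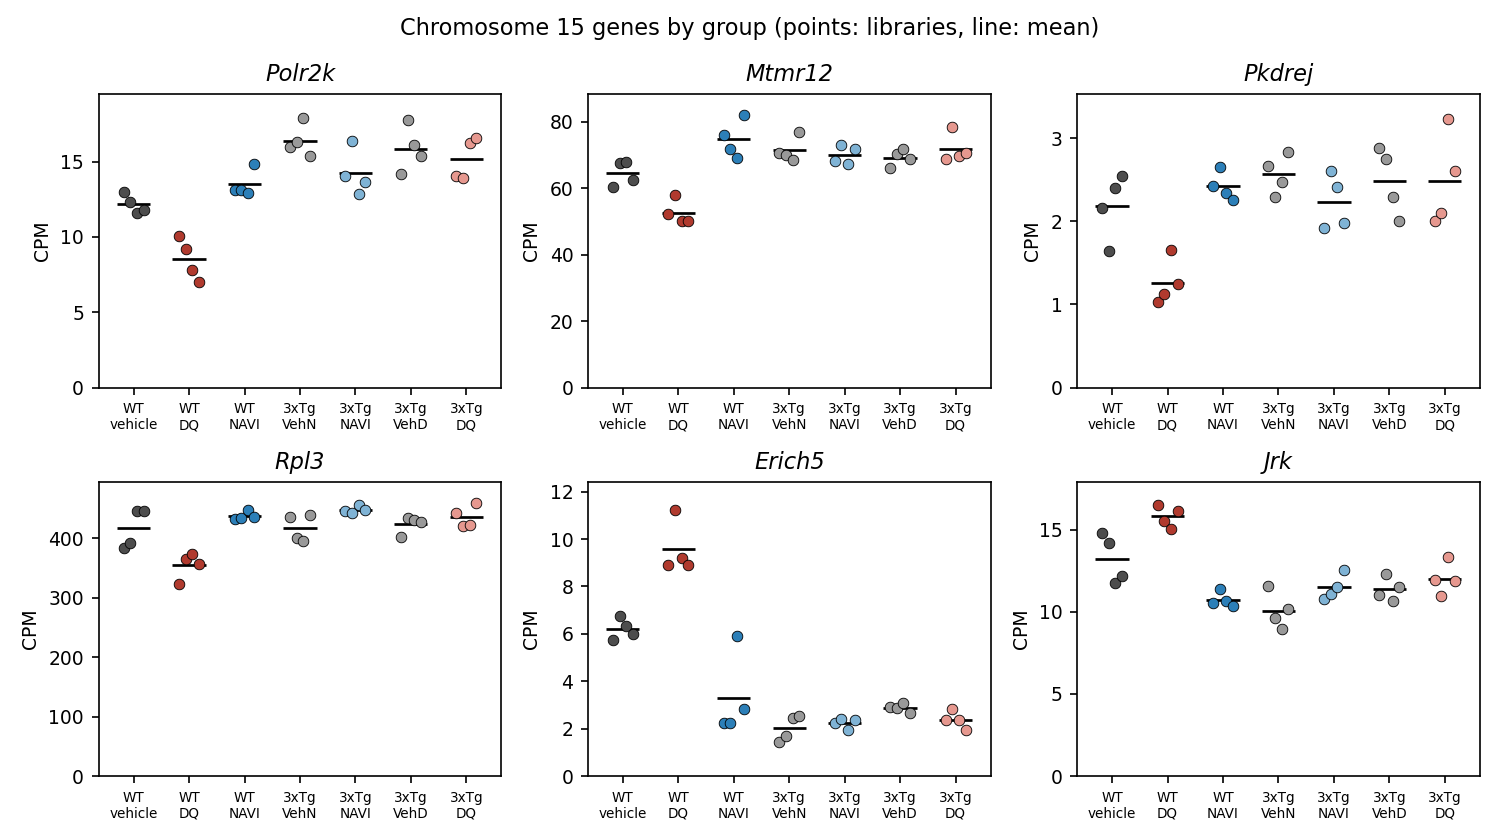
CPM (vertical axes, from 0) of 6 chromosome 15 genes in the 28 libraries by group (horizontal axes); points are libraries and lines are means of 4. WT DQ libraries lie below all WT Veh libraries in Polr2k, Mtmr12 and Rpl3 and above them in Erich5 and Jrk, while Pkdrej touches, with 1.66 CPM in a DQ library and 1.65 CPM in a Veh library.

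Whether DQ acted alike in the 2 genotypes was tested as the difference between its effects, 3xTg minus WT. With edgeR 0 of 16369 genes passed (0%), with 467 at an unadjusted p under 0.05 (2.85%); DESeq2 called 1, Cthrc1, and limma-voom 0. For Cthrc1 the effect in 3xTg was -0.23 against -1.91 in WT, a difference of 1.68 (SE 0.315, unadjusted p = 1.62e-05, edgeR adjusted p = 0.265), the smallest p of this test. It passed once scores of choroid plexus and thalamus markers entered as covariates. Mtmr12 was next, with effects of 0.05 and -0.30 and a difference of 0.35 (SE 0.0860, edgeR adjusted p = 0.9999). The other 3 genes of smallest p were Slc38a11, an amino acid transporter (difference -1.17, SE 0.306), the predicted gene Gm8773, measured at 1 to 6 counts in the WT libraries, and Chrna6, a nicotinic receptor subunit (difference -3.71, SE 1.02). On chromosome 15, 2.37% of genes had an unadjusted p under 0.05 for DQ in 3xTg, within the 0.659% to 3.24% of the other chromosomes (all genes, 1.83%). Across all 16369 genes the effects of DQ in WT and in 3xTg had a Spearman rho of -0.051, a description over genes that are not independent replicates. VehD was matched to DQ by the last letter of its label, and WT had a single vehicle group, so a difference between vehicles is part of this contrast and cannot be told apart from it.

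Immediate early genes, which neurons transcribe within minutes of activity, were mostly higher with DQ, and 1 library carried much of it. All 24 listed genes were tested, 23 had a log2 fold change above 0 (48.6% of all genes did), and their median was 0.24, against -0.0028 over all genes. None passed the threshold with edgeR, DESeq2 or limma-voom, and 4 had an unadjusted p under 0.05, all higher (1.34% of all genes were). The groups overlapped in each of the 24. Fos, a subunit of the AP-1 transcription factor, had 19.5, 14.1, 36.4 and 18.4 CPM with DQ and 17.0, 12.3, 12.1 and 10.2 CPM with Veh. Its log2 fold change was 0.77 (SE 0.332, edgeR adjusted p = 0.9997), and DQ replicate 3 was the highest library. Arc, which encodes a synaptic protein that regulates AMPA receptors, had 110, 66.6, 187 and 121 CPM with DQ and 127, 49.7, 61.5 and 72.7 CPM with Veh (log2 fold change 0.64, SE 0.246, edgeR adjusted p = 0.9997). Nr4a1, an orphan nuclear receptor, had 61.8, 33.7, 78.5 and 57.0 CPM with DQ and 62.5, 32.6, 30.8 and 29.3 CPM with Veh (log2 fold change 0.57, SE 0.232). In both, Veh replicate 1 was above 3 of the 4 DQ libraries. NAVI against the same Veh libraries had 20 of the 24 early genes above 0, with a median of 0.28. The direction was thus shared by both drug groups, which also share these controls. The log2 fold change of DQ against NAVI was -0.12 for Arc (SE 0.244), -0.17 for Fos (SE 0.327) and -0.04 for Nr4a1 (SE 0.230).

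**Figure D4:**
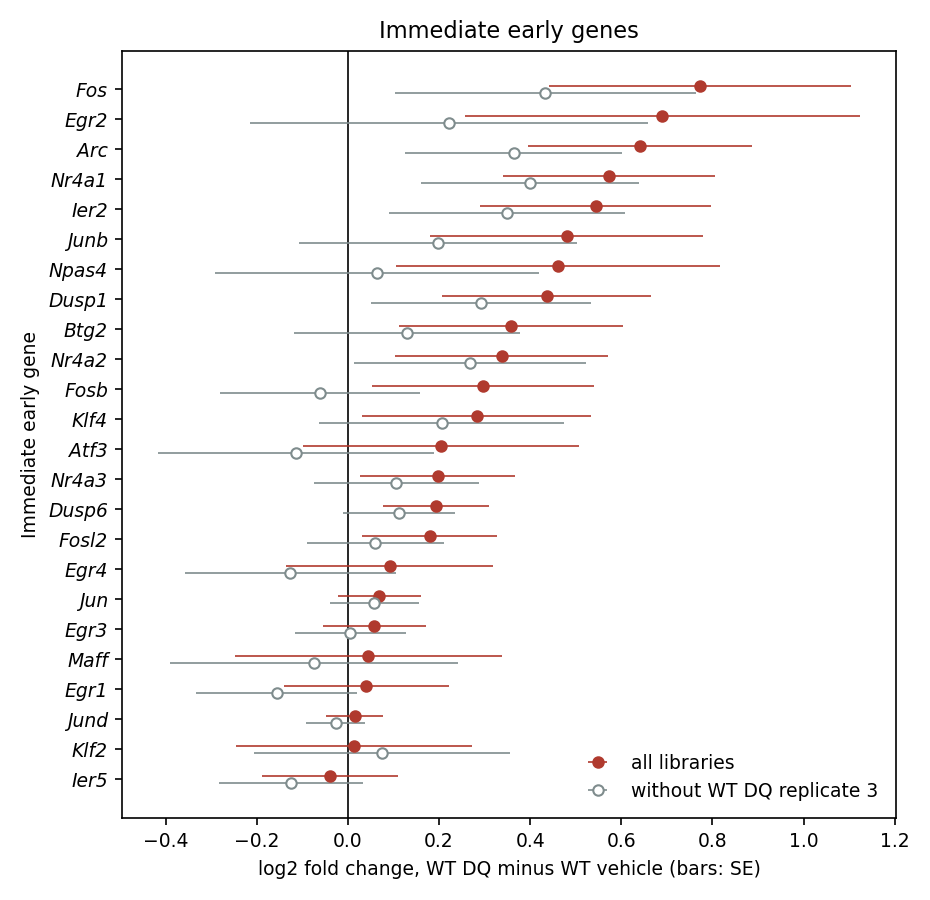
log2 fold change, WT DQ minus WT Veh (horizontal axis; bars are 1 SE) of the 24 immediate early genes (vertical axis), with all libraries (filled) and without WT DQ replicate 3 (open). With all libraries 23 lie above 0, with a median of 0.24, and without that replicate 17 do, with a median of 0.091.

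DQ replicate 3 was the highest DQ library for 21 of the 24 genes, and Veh replicate 1 the highest Veh library for 16. Without DQ replicate 3 the log2 fold change was above 0 for 17 genes, the median was 0.091 and 0 had an unadjusted p under 0.05 with edgeR. The plot of the early genes shows both sets of values gene by gene. That library also had the highest score of the 4 DQ libraries for blood myeloid markers (2.00, others 0.09 to 0.57) and for meningeal fibroblast markers (1.16, others -0.24 to 0.66), where a score is the mean log2 CPM of the listed genes relative to the mean of all 28 libraries. Their part in the early gene values was not tested. Junb, another AP-1 subunit, had 10.9, 5.72, 17.6 and 11.2 CPM with DQ against 12.2, 5.43, 6.95 and 7.96 CPM with Veh. Npas4, a factor induced by calcium entry in neurons, had 13.4, 10.8, 25.7 and 9.40 CPM with DQ against 11.1, 8.12, 13.8 and 10.05 CPM with Veh. Both overlapped widely, with log2 fold changes of 0.48 (SE 0.300) and 0.46 (SE 0.356). Ier2 had 3.13, 1.98, 4.35 and 2.99 CPM with DQ and 3.07, 1.39, 1.83 and 2.26 CPM with Veh (log2 fold change 0.54, SE 0.253). Of the later activity genes, such as Bdnf and Homer1, 16 of 24 were above 0 with a median of 0.04, and the salt-inducible kinase gene Sik1 had the only unadjusted p under 0.05 (0.41, SE 0.185).

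Promoter sequence is shown for Fos and Nr4a1 because these genes were among the 4 of small p and their shared early transcription is known to depend on elements close to the start. The sequences are the 250 bases before an annotated start in RefSeq on GRCm38.p6, the assembly also called mm10. They run 5' to 3' on the plus strand. Each TGACG or its reverse complement CGTCA, the core of the cAMP response element, is in capitals. The span of Nr4a1 in the gene positions used here runs from 101253902 to 101274795, so its stretch lies inside that span, before a start further downstream.
Fos, chr12:85473640-85473889: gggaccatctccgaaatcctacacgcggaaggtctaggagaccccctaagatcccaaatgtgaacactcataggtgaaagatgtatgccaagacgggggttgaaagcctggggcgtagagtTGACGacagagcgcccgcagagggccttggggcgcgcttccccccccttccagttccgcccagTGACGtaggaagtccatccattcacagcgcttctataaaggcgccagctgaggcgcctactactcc
Nr4a1, chr15:101266596-101266845: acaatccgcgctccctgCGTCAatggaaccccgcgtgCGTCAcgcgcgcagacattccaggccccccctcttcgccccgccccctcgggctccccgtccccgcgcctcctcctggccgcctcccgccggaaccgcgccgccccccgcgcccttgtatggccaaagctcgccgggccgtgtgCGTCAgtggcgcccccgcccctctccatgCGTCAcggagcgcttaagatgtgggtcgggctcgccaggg
Fos held 2 such matches and Nr4a1 held 4, and neither held the full palindrome TGACGTCA. Matches to the core were searched on both strands and stood in 17.8% of 32851 promoters of the same length, and the full palindrome, which contains the core, in 1.55%. Of the 24 early genes 20 had an entry, and 15 of the 20 held the core in any of their entries. That count is by gene, whereas the 17.8% is by promoter, so the shares are not directly comparable. A match describes the letters only, and no promoter was listed for Cthrc1 or Arc.

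Genes of the kinases that dasatinib inhibits had a median close to 0. Of 28 tested, 18 had a log2 fold change above 0, the median was 0.05, and 1 had an unadjusted p under 0.05. Src, the founding member of its family, had 109, 93.9, 117 and 127 CPM with DQ and 116, 90.7, 105 and 121 CPM with Veh (log2 fold change 0.05, 95% confidence interval -0.22 to 0.32). Abl1 had 49.9, 45.2, 52.6 and 57.7 CPM with DQ against 48.6, 42.5, 44.0 and 47.1 CPM with Veh (0.17, -0.05 to 0.40). These intervals bound a change of the RNA only, and say nothing of kinase activity. The receptor tyrosine kinase gene Kit ran from 91.9 to 170 CPM with DQ and from 98.5 to 140 CPM with Veh, and the PDGF receptor gene Pdgfrb, a mural cell marker, from 15.3 to 22.9 and from 16.5 to 23.3 CPM. Epha2 was low, at 0.690 to 1.14 CPM with DQ and 0.765 to 1.95 CPM with Veh. Epha3, an ephrin receptor of growing axons, was the member of small p, with 17.3, 21.7, 22.1 and 17.9 CPM with DQ and 19.1, 16.0, 16.9 and 14.1 CPM with Veh (log2 fold change 0.26, SE 0.102). Of 22 ephrin receptors and ligands, 12 were above 0 with a median of 0.04.

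Lists that bear on quercetin had medians near 0. Of 24 NRF2 antioxidant genes, 12 were above 0 and the median was -0.0016. Slc7a11, the cystine transporter that supplies glutathione synthesis, had 117, 86.4, 112 and 108 CPM with DQ and 90.6, 92.6, 73.2 and 53.7 CPM with Veh (log2 fold change 0.45, SE 0.189, edgeR adjusted p = 0.9997). It was the only gene of that list with an unadjusted p under 0.05, and the groups overlapped. The 9 tested aryl hydrocarbon receptor genes had a median of 0.03, and the 24 PI3K, AKT and FOXO genes a median of 0.04 with none at that p.

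No gene of the senescence list passed the threshold. Its 17 tested cell cycle regulators mix genes known to be raised in senescent cells, such as Cdkn1a and Glb1, with others known to be lowered, such as Lmnb1, so its count of 9 above 0 and median of 0.01 give no direction for senescence. The nuclear lamin gene Lmnb1 had a log2 fold change of -0.20 (SE 0.104). Cdkn1a had 7.88, 7.62, 12.2 and 9.62 CPM with DQ and 16.8, 10.02, 10.2 and 12.3 CPM with Veh. The groups overlapped, and the log2 fold change was -0.40 (SE 0.220, 95% confidence interval -0.85 to 0.05, edgeR adjusted p = 0.9997). Cdkn2a stayed under the filter, with 0, 1, 1 and 1 counts in the DQ libraries and 2, 2, 2 and 4 in the Veh libraries, so a difference was not measurable at this depth. Glb1, which encodes the lysosomal beta-galactosidase used as a senescence stain, was the member of smallest p, with 28.9, 23.6, 26.5 and 27.1 CPM with DQ and 19.4, 23.2, 23.2 and 23.1 CPM with Veh. Every DQ library was the higher, at a log2 fold change of 0.26 (SE 0.106, edgeR adjusted p = 0.9997).

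Secreted factors of senescent cells were divided, with 17 of 32 tested above 0 and a median of 0.0019. The chemokine Cxcl1 rested on 8 to 18 counts per DQ library and 2 to 9 per Veh library, and Timp1, an inhibitor of matrix metalloproteinases, on 7 to 44 and 9 to 22. Both had an unadjusted p under 0.05, with log2 fold changes of 1.24 (SE 0.507) and 1.07 (SE 0.444). BCL-2 family genes, which set the threshold for apoptosis and are targets of other senolytics, had 8 of 16 above 0. Bcl2 itself had 23.6, 22.5, 20.2 and 22.9 CPM with DQ and 22.9, 31.0, 24.9 and 24.8 CPM with Veh (log2 fold change -0.22, SE 0.0973). The p53 target genes had 11 of 20 above 0 and a median of 0.0044.

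Lists of 2 stress responses, of interferon-stimulated genes and of antigen presentation genes had medians below 0, and complement genes had a median of 0.06 with 11 of 18 above 0. The integrated stress response, in which ATF4 raises genes of amino acid supply, had 14 of 20 members below 0, a median of -0.07 and 5 members lower at an unadjusted p under 0.05 (2.04% of all genes were). The cystine transporter gene Slc7a11, given above, was the 1 member higher at that p (0.45). Atf4, on chromosome 15, had 124, 93.6, 112 and 94.8 CPM with DQ and 137, 126, 94.1 and 144 CPM with Veh (log2 fold change -0.24, SE 0.0921). Mthfd2, of mitochondrial folate metabolism, had 8.55, 6.47, 6.24 and 6.68 CPM against 8.36, 10.4, 6.46 and 11.0 CPM (-0.37, SE 0.132). Slc7a5, a large neutral amino acid transporter, had 67.5, 52.8, 50.9 and 52.9 CPM against 70.4, 61.5, 58.9 and 69.6 CPM (-0.22, SE 0.0848). In all 3 genes the groups overlapped. For NAVI against the same Veh libraries 4 of the 20 integrated stress response genes were above 0, with a median of -0.21. Unfolded protein response genes had 16 of 20 below 0, a median of -0.12 and none at that p. Their scores were -0.200, -0.072, -0.127 and -0.001 in the DQ libraries and -0.218, -0.076, -0.135 and 0.294 in the Veh libraries. Only Veh replicate 4 lay above the DQ libraries, so the lower values with DQ rested on 1 library.

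Antigen presentation genes were below 0 in 17 of 18, with a median of -0.33 and 4 lower at an unadjusted p under 0.05. For NAVI against the same Veh libraries 0 of the 18 were above 0, with a median of -0.34, so the direction was shared by both drug groups. B2m, the light chain of class I MHC molecules, had 94.6, 105, 94.0 and 100 CPM with DQ and 129, 163, 108 and 132 CPM with Veh. It was lower in every DQ library, with a log2 fold change of -0.44 (SE 0.136, edgeR adjusted p = 0.9997). The class I heavy chain H2-K1 had 26.8, 28.8, 27.7 and 43.2 CPM with DQ and 39.6, 56.2, 25.1 and 53.4 CPM with Veh, so that Veh replicate 3 was the lowest of the 8 (-0.46, SE 0.209). H2-Q4 showed the same low Veh replicate, with 4.59, 4.86, 3.96 and 6.95 CPM against 7.09, 12.1, 4.41 and 9.73 CPM (-0.71, SE 0.272). Interferon-stimulated genes had 21 of 27 below 0, a median of -0.17 and 2 lower at that p, Gbp7 (-0.42, SE 0.185) and Stat2 (-0.20, SE 0.0893). The endothelium, which also presents class I molecules, had 14 of 15 markers below 0 with a median of -0.17 (-0.26 for NAVI against Veh). These markers summed to 411 to 477 CPM with DQ and 406 to 615 CPM with Veh. The part of the endothelium in the antigen presentation and interferon values was not tested.

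Matrix genes other than collagens were above 0 in 24 of 30, with a median of 0.12, and Cthrc1 was the only one called. Eln, which encodes elastin, had 7.15, 4.72, 8.18 and 10.04 CPM with DQ and 4.48, 5.82, 3.76 and 4.23 CPM with Veh (log2 fold change 0.72, SE 0.245, edgeR adjusted p = 0.9997). Lox, which crosslinks collagen and elastin, had 0.919, 0.403, 2.46 and 1.48 CPM against 0.545, 0.905, 0.415 and 0.811 CPM, and the calcification inhibitor gene Mgp had 18.005, 8.89, 41.3 and 29.6 CPM against 12.6, 16.8, 9.74 and 16.5 CPM. In all 3 the second DQ library was the lowest of its group and lay within or below the Veh range, whereas Cthrc1 was below Veh in all 4. Collagens had a median of 0.11, with 14 of 23 above 0. Meningeal fibroblast markers, which include matrix genes, were above 0 in 14 of 14, with a median of 0.54 and none at an unadjusted p under 0.05. Their scores were 0.44, -0.24, 1.16 and 0.66 in the DQ libraries and -0.18, 0.58, -0.68 and -0.18 in the Veh libraries. How far fibroblast RNA accounts for the matrix values was not tested, and in bulk RNA a different share of a cell type and a different RNA level per cell cannot be told apart.

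WNT pathway genes had 17 of 26 above 0 and a median of 0.07, with Fzd6 lower and Fzd1 higher (0.25) at an unadjusted p under 0.05. Cytosolic ribosomal protein genes had 26 of 29 below 0, by little, with a median of -0.06. Beside Rpl3 the only one at that p was Rps23, at 154, 146, 153 and 145 CPM with DQ and 167, 154, 157 and 164 CPM with Veh (-0.10, SE 0.0484). Its groups did not overlap, by a narrow margin.

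The intervals of Gfap and Trem2, genes of reactive glia, included 0. Gfap, the intermediate filament of astrocytes, had 438, 393, 384 and 496 CPM with DQ and 429, 387, 340 and 364 CPM with Veh (log2 fold change 0.17, 95% confidence interval -0.19 to 0.54). Trem2, the microglial lipid receptor, had 7.04, 6.10, 6.91 and 8.69 CPM with DQ and 9.04, 7.10, 5.57 and 9.06 CPM with Veh (-0.10, -0.56 to 0.37). In both genes the groups overlapped. Reactive astrocyte genes had 17 of 23 above 0 with a median of 0.15, and summed to 870 to 1097 CPM with DQ and 670 to 913 CPM with Veh. Timp1 (1.07, SE 0.444) was the only one of them with an unadjusted p under 0.05. Disease-associated microglia genes had 11 of 22 above 0 with a median of -0.02, and Lilrb4, an inhibitory receptor gene, was the only one at that p (0.82, SE 0.350). Microglial identity markers had 12 of 14 below 0 with a median of -0.10, the purinergic receptor gene P2ry13 having the only unadjusted p under 0.05 (-0.25, SE 0.117).

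Markers of neighbouring tissue differed between the libraries within each group. The 16 choroid plexus markers summed to 463 to 7505 CPM with DQ and 418 to 6418 CPM with Veh, with 2 high and 2 low libraries in each group, and their median log2 fold change was 0.22. Thalamus and habenula markers were above 0 in 17 of 18 (median 0.33), with scores of 0.74, 0.06, -0.22 and 0.72 with DQ and -0.39, 0.54, -0.42 and -0.49 with Veh. Of 12 striatal markers 11 passed the filter, and these 11 were below 0 (median -0.47), and their sum was 353 to 380 CPM with DQ and 362 to 494 CPM with Veh. Of 14 blood myeloid markers 9 passed the filter, and these 9 were above 0 (median 0.44), led by the neutrophil granule genes Ngp and S100a9 in DQ replicate 3, with 2.56 and 3.83 CPM. Dentate gyrus, CA1 and CA3 markers of the hippocampus itself, the labelled tissue, were present in all 8 libraries, at summed levels of 477 to 716, 669 to 902 and 566 to 642 CPM. With the scores of choroid plexus and thalamus as covariates the Cthrc1 log2 fold change was -2.08.

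**Figure D5:**
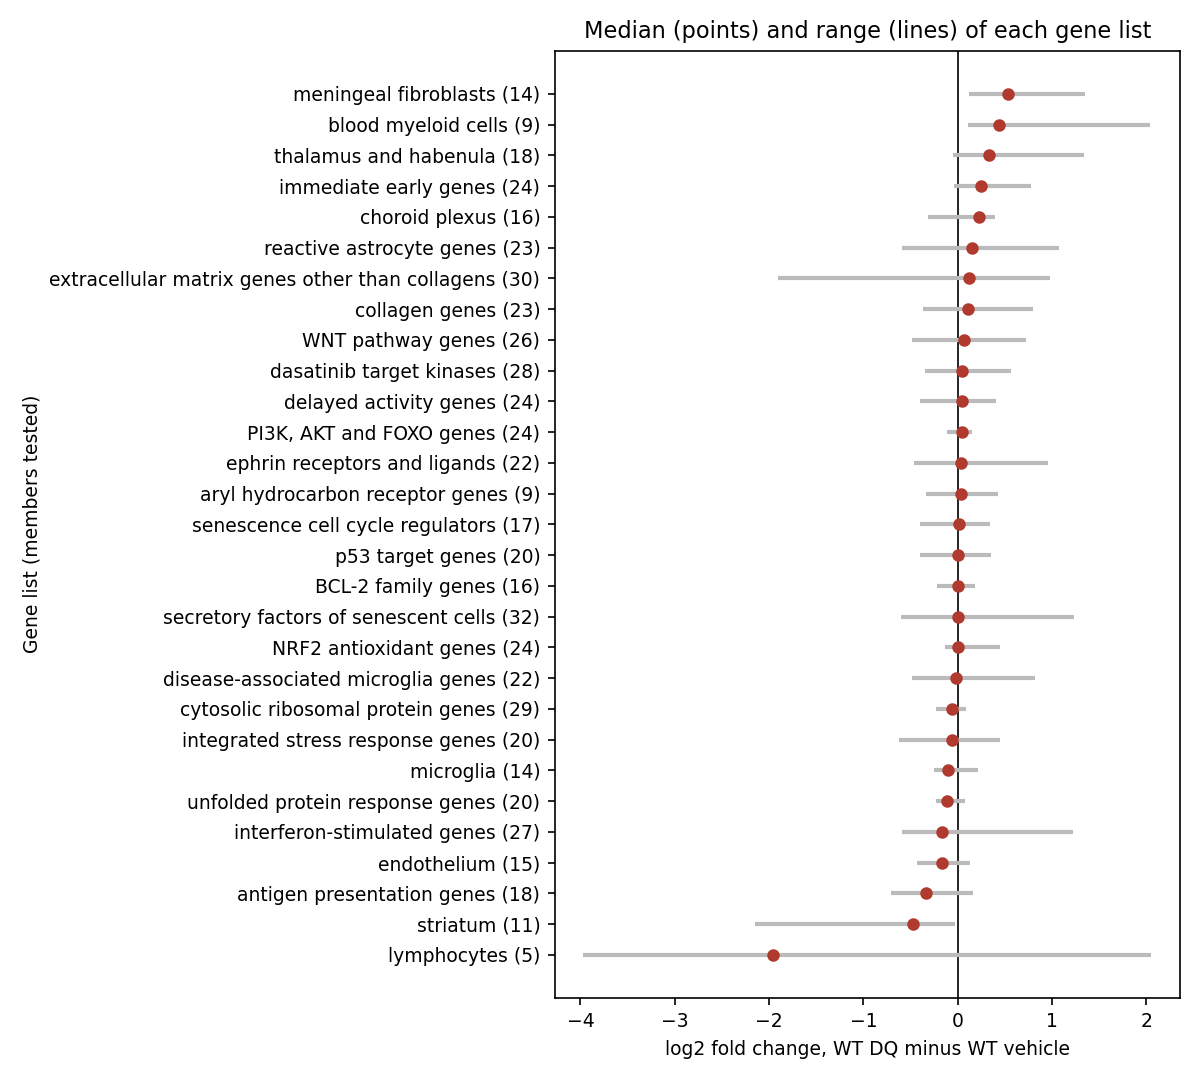
Median (points) and range (lines) of the log2 fold change, WT DQ minus WT Veh (horizontal axis), for 29 gene lists (vertical axis, members tested in brackets). Most medians lie near 0, with lymphocytes lowest at -1.95 over 5 genes and meningeal fibroblasts highest at 0.54.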

How the data were processed

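Poly(A) RNA of female hippocampus was sequenced as stranded libraries with paired reads, per the labels' protocols. The deposited table holds the authors' raw counts per gene symbol in 1 column per library, without normalization or pooling, and 0 columns were left unused. The submitters' processing notes name STAR, Subread, featureCounts and mm10. Not given in the sources used here are the gene annotation, how strand was set and how multimapping reads were counted, which makes counts of overlapping and of copied genes uncertain. Positions (16303 genes) and promoters come from RefSeq on GRCm38.p6.

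Genes were tested with edgeR 4.0.16 (R 4.3.3) by the quasi-likelihood test with TMM normalization and the filterByExpr filter (7693 genes removed), on all 28 libraries with 1 coefficient per group. P-values are two-sided, adjusted by Benjamini-Hochberg over 16369 genes and called under 0.05. The SE was taken as the size of the log2 fold change divided by the root of the F statistic. The closest libraries of a group differed beyond sampling noise (lowest chi-square per degree of freedom 21.4). The method was tested on simulated data. The alternatives tried were upper-quartile and RLE normalization, limma-voom (limma 3.58.1) with quality weights, DESeq2 1.42.0, no filter, a mean of at least 50 counts, only the libraries compared, a replicate block, tissue scores as covariates, removal of a GC trend (15590 genes with a GC value) and leaving out each library. The comparison, its markers and the gene lists were chosen with earlier results of these data known. Genes named are the 15 largest changes each way past the threshold or, with fewer than 5, the smallest p up to 5, up to 4 members of smallest p per list described, the 5 of smallest adjusted p in the other contrasts, and a fixed set of marker, kinase and senescence genes. A gene that the rule also names is not reported here. The chromosome 15 genes, the promoters and the genes set beside Cd79b and Sspo were chosen after their values were seen, as were the counts of early genes and of chromosome 15 genes as measures.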

Additional observations from a re-analysis of the deposited data

Results flagged for a closer look

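Of 130 groups of 4 libraries checked for a library far from the other 3, 9 were noted, and chance gives about 1 in 20. WT Veh replicate 1 was the highest of its group for Cd79b (8.59 CPM, others 0.232 to 0.262), for Nr4a1 (62.5 CPM, others 29.3 to 32.6) and for the immediate early gene score (0.240, others -0.195 to -0.141), and the lowest for Olfr287 (3.00 CPM, others 4.13 to 4.30). WT Veh replicate 2 had a thalamus and habenula score of 0.540 where the others had -0.486 to -0.388, and WT Veh replicate 4 had 42.4 CPM of 3632451O06Rik (others 48.6 to 48.9). WT DQ replicate 2 was the highest for Erich5 (11.2 CPM, others 8.90 to 9.22) and the lowest for Pdgfrb (15.3 CPM, others 21.9 to 22.9). WT DQ replicate 3 was the lowest for Gm8773 (0.0518 CPM, others 0.115 to 0.132), a gene of a few counts.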

How the results depend on the processing

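The count of 1 gene between WT DQ and WT Veh was 0 with only the libraries compared and with limma-voom, 2 with the GC trend removed and 4 with DESeq2 (Mtmr12, Polr2k, Cthrc1 and Sspo), and from 1 to 5 when single libraries were left out. The count of 0 for the difference between genotypes was 1 with tissue scores as covariates and 1 with DESeq2, both Cthrc1, and 0 without any single library. The count of 11 between WT DQ and WT NAVI was 1 with only the libraries compared, 38 with DESeq2 and 39 with limma-voom, and from 5 to 20 when single libraries were left out. The cause of these shifts was not tested; the fits of only the libraries compared hold fewer libraries. For pairing, the mean log2 CPM of a library's own group was first subtracted from each gene. On these deviations, not on the levels themselves, same-numbered DQ and Veh libraries had correlations of -0.026, -0.079, 0.083 and 0.370. By this measure 1 of 4 DQ libraries correlated best with its own number. So few values cannot show whether same-numbered libraries share more than a number, and the main fit assumed no pairing. With the replicate block the counts were 1 for WT DQ against WT Veh, 0 for the difference between genotypes and 13 for WT DQ against WT NAVI. Of 640 values of named genes under the alternatives, a change of sign was counted only in the 18 of the called gene, Cthrc1, and it was 0. Genes that were not called could change sign. The log2 fold change of Fosb was 0.30 in the main fit and -0.06 without WT DQ replicate 3. That of Gm8773 kept its sign, at 1.13 in the main fit and 0.47 with tissue scores as covariates. The early genes above 0 numbered 17 to 23 over the alternatives. A median SE of 0.119 limits what 4 libraries a group can show, and genes of a few counts such as Cdkn2a were not measurable.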

Other observations

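Neuronal and metabolic lists not described above also lay near their vehicle levels in WT. Respiratory chain genes encoded in the nucleus were above 0 in 14 of 24, with a median log2 fold change of 0.0099, and postsynaptic genes in 10 of 20. Presynaptic genes were below 0 in 15 of 20, with a median of -0.04, and glutamate and GABA receptor genes were above 0 in 18 of 35. Oligodendrocyte markers had 8 of 14 above 0 (median 0.03) and astrocyte markers 5 of 12 (median -0.02). Heat shock and chaperone genes were below 0 in 15 of 20, with a median of -0.05. Their score was 0.202 in Veh replicate 4, -0.206 to -0.072 in the other Veh libraries and -0.134 to 0.019 in the DQ libraries.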
